A study of Mus musculus with 9 samples.

Results

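The genes described are 8 of the 54532 in the deposited table, namely Procr, Thbd, F3, F10, Plau, Plaur, Serpinb2 and Edn1, which encode parts of the coagulation, fibrinolysis and endothelin systems. Procr and Edn1 were picked because their levels moved in opposite directions when cells given LPS also received G-CDs. Their values in that comparison are therefore a description with no test, and the remaining 6 genes were listed by function. All samples were RAW264.7 cells, a mouse macrophage line of wild-type genotype that the labels trace to ascites, in 3 groups of 3 libraries. Control cells received nothing, a second group received LPS, a component of the bacterial outer membrane, at 1 μg/ml, and the last group received LPS at 1 μg/ml with G-CDs, carbon dots made from Glycyrrhiza, at 400 μg/ml. Both treatments lasted 6 h. No group received G-CDs without LPS, and G-CDs were used at a single dose and time. The titles and the design text name G-CDs for the last group, whereas its treatment label gives LPS alone. Nothing in the labels says that the libraries of a group came from separate cultures, so p-values measure only the spread between these samples, which may be technical.

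Coagulation starts when tissue factor, the product of F3, binds factor VII on a cell surface and the complex activates factor X, the product of F10, which in turn produces thrombin. Thrombin held by thrombomodulin, the product of Thbd, activates protein C, and the endothelial protein C receptor, the product of Procr, presents protein C for this step. Activated protein C then inactivates clotting cofactors. Fibrin is dissolved by plasmin, which urokinase, the product of Plau, generates from plasminogen at its receptor, the product of Plaur, and PAI-2, the product of Serpinb2, inhibits urokinase. Edn1 encodes the precursor of endothelin-1, a peptide that constricts vessels. Monocytes and macrophages are known to produce tissue factor, urokinase receptor, PAI-2 and endothelin-1 when stimulated with bacterial products.

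Levels are given as FPKM, which is a read count divided by gene length and library size. The library size used differed between the groups relative to the reads on genes, as given with the processing. Comparisons between samples therefore hold under that scaling. The reads behind each value were recovered from FPKM and gene length, and 100% of the values gave a whole number to within 0.05 reads. The libraries held between 14752400 and 17312255 reads on genes. Pearson's r between replicates over the 11585 genes tested was 0.94 to 0.969 for control, 0.987 to 0.988 for LPS and 0.935 to 0.975 for LPS + G-CDs, so the LPS replicates were the most alike. Of 10 macrophage markers, 9 had a mean of at least 1 FPKM in every group, and Mertk was at 0 in all libraries. Of 10 endothelial markers, only Egfl7 reached that level, and their summed FPKM was 3.34 to 5.32 in control, 2.19 to 2.64 in LPS and 2.43 to 3.93 in LPS + G-CDs. The 8 platelet markers summed to at most 0.759 FPKM in any library, with Pf4 and Ppbp at 0 in all of them. In bulk RNA, fewer cells that express a gene and less of its RNA per cell cannot be told apart.

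The 8 genes lie on 7 chromosomes, and for all of them the coordinates in the table equaled GENCODE mouse release M21 on GRCm38. Procr (ENSMUSG00000027611) spans chr2:155751117-155755471 on the plus strand with 4 exons in its longest coding transcript, and Edn1 (ENSMUSG00000021367) spans chr13:42301476-42307990 on the plus strand with 5. F3 (ENSMUSG00000028128) lies at chr3:121723537-121735048, and F10 (ENSMUSG00000031444) lies at chr8:13037308-13056676. Plau (ENSMUSG00000021822) lies at chr14:20836660-20843385, Plaur (ENSMUSG00000046223) at chr7:24462484-24475968, and Serpinb2 (ENSMUSG00000062345) at chr1:107511423-107535478. All of these are on the plus strand, whereas Thbd (ENSMUSG00000074743), a gene of 1 exon, is on the minus strand at chr2:148404466-148408188. None of the 50-base words of their longest transcripts occur in other genes, except for 2.1% of those of F10. The library protocol as described does not mark strand. An antisense gene, Gm47118, overlaps Edn1 at chr13:42302298-42304991, and its reads cannot be told apart from those of Edn1 where the genes overlap. Gm47118 was credited with 0 reads in the control libraries, 3 to 13 in the LPS libraries and 0 to 5 in the LPS + G-CDs libraries.

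RefSeq promoter windows on GRCm38.p6 were found for 6 of the 8 genes. Those of 5 genes are shown because their transcripts rose with LPS, and Procr and Edn1 among them were picked for their opposite change with G-CDs. Each line gives the bases before the annotated gene start, 5′ to 3′ on the plus strand, in the order Procr (chr2:155750967-155751116), Edn1 (chr13:42301226-42301475), F3 (chr3:121723287-121723536), Plaur (chr7:24462233-24462482) and Serpinb2 (chr1:107511173-107511422). Capitals mark the motif matches described after the sequences.
Procr: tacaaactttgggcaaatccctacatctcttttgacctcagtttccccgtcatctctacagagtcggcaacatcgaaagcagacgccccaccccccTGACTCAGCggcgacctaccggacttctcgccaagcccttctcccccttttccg
Edn1: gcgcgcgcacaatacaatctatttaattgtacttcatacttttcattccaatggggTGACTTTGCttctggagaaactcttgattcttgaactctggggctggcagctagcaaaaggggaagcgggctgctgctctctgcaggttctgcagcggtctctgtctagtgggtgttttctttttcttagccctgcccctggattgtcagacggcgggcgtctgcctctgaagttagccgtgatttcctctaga
F3: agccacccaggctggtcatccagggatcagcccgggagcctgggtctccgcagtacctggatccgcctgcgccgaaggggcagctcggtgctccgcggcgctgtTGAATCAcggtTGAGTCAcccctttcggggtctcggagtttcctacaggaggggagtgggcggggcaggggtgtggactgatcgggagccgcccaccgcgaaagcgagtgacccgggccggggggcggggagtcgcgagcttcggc
Plaur: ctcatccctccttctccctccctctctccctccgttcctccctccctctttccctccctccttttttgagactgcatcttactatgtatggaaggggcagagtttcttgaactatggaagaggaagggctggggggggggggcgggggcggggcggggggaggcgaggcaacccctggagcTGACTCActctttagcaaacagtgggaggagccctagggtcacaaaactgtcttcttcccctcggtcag
Serpinb2: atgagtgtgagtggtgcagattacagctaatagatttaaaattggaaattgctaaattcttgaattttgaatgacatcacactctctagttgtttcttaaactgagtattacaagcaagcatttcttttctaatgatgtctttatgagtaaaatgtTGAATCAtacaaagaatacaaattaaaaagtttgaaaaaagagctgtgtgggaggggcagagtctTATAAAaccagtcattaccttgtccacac
The motifs searched were the core of the antioxidant response element (TGACNNNGC), the AP-1 site (TGANTCA), the cAMP response element (TGACGTCA), the κB consensus and, on the gene's strand alone, the TATA box (TATAAA). All but the TATA box were searched on both strands. Procr held TGACTCAGC at -154 from its RefSeq start site, which lies 100 bases inside the annotated gene, and this match fits both the antioxidant response element core and, in its first letters, the AP-1 site. Edn1 held TGACTTTGC, a match to the antioxidant response element core, at -194. The AP-1 letters occurred at -146 (TGAATCA) and -135 (TGAGTCA) in F3, at -69 (TGACTCA) in Plaur and at -94 (TGAATCA) in Serpinb2, where TATAAA lay at -29. RefSeq holds another Serpinb2 start site, at 107511510, from which these matches lie at -181 and -116. The F10 window held none of these motifs. Among all 32851 windows of 300 bases, 12.4% held the antioxidant response element core, 7.8% the AP-1 site, 1.8% the cAMP response element, 8.5% the κB consensus and 8.3% the TATA box. A match is a description of letters and not a site in use.

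Exposure to LPS raised the RNA of the protein C receptor, tissue factor, urokinase receptor and endothelin-1 genes, and PAI-2 RNA was read only in the cells that received LPS. Before the individual genes are described, the counts over the 8 are as follows. The 3 LPS libraries lay above the 3 control libraries for Procr, F3, Plaur, Serpinb2 and Edn1, below them for Plau, and overlapped them for F10 and Thbd. Over all genes tested, 27.4% lay above without overlap and 25.1% below. With limma, 4 of the 5 genes above the expression minimum (1 FPKM or more in 3 or more of the 9 libraries) were called higher at a Benjamini-Hochberg adjusted p under 0.05 and 0 were called lower, beside 31.3% of all tested genes called in either direction, 15.8% higher and 15.6% lower. Edn1 and F3 passed that minimum only through the libraries that received LPS, and Procr had 2 control libraries at 1 FPKM or more, so the count says nothing of the 8 genes as a set. F10, Thbd and Serpinb2 did not pass the minimum. These calls come from a fit without replicate numbers. In a limma fit blocked by replicate number, Plau was also called lower (adjusted p = 0.035).

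**Figure D1:**
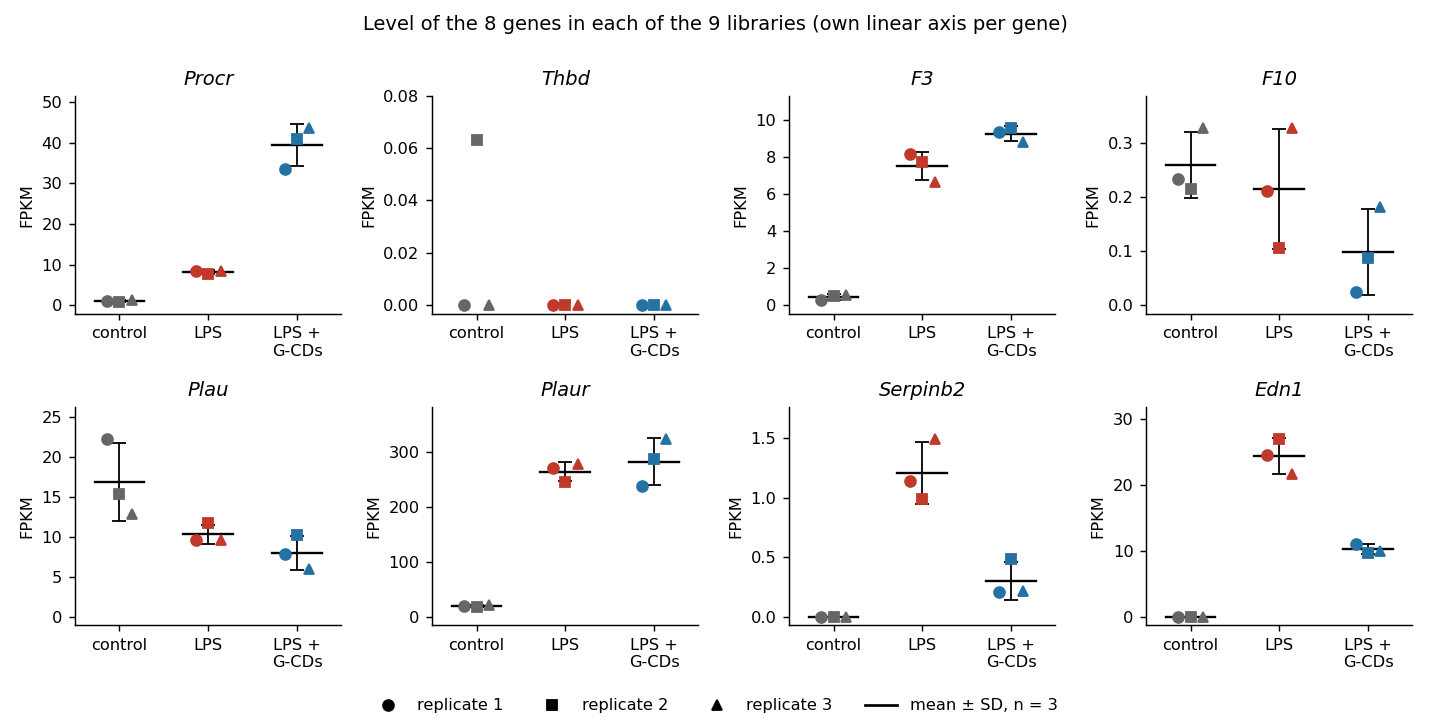
FPKM of each of the 8 genes (y axes, linear, 1 scale per gene) in the control, LPS and LPS + G-CDs libraries (x axes). Points are libraries, shaped by replicate number, and lines are the mean ± SD of 3 libraries except for Thbd, which had reads in a single library. Procr stepped up from about 1.10 to 8.21 to 39.3 FPKM, whereas Edn1 went from 0 to 24.4 and back to 10.2.

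Adding G-CDs to LPS went with unlike levels of these genes. The picked genes lay at 4.79 times (Procr) and 42.0% (Edn1) of their LPS means, which is a description, and F3, Plaur, Plau and the low-count Serpinb2 did not pass a test. The LPS + G-CDs group lay wholly above the LPS group for Procr and F3, below it for Edn1 and Serpinb2, and overlapped it for F10, Thbd, Plau and Plaur, where 12.9% of all genes tested lay above and 15.0% below. Of the 3 genes above the expression minimum and not picked (F3, Plaur and Plau), limma called 0, and 0 reached an unadjusted p under 0.05. Over all genes tested, 0.492% were called (0.25% higher and 0.242% lower) and 15.2% had an unadjusted p under 0.05. The voom fit on recovered reads also called 0 of these 3. In limma with no expression minimum, the unadjusted p was 0.00017 for Serpinb2 (adjusted p = 0.076) and 0.11 for F10 (adjusted p = 0.54). Both comparisons share the LPS libraries. Set against control, the LPS + G-CDs group lay above for Procr, F3, Plaur, Serpinb2 and Edn1 and below for F10 and Plau (17.7% and 16.6% of all genes tested), and limma called F3 and Plaur higher and Plau lower, beside 25.3% of all genes called, 12.8% higher and 12.4% lower.

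**Figure D2:**
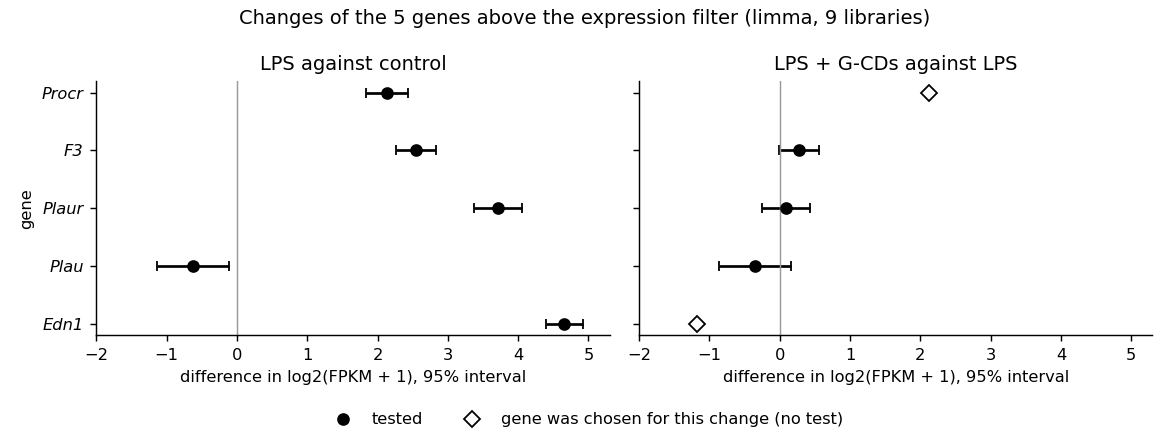
Difference in log2(FPKM + 1) (x axes) with its 95% interval for the 5 genes above the expression minimum, for LPS against control on the left and LPS + G-CDs against LPS on the right. Open diamonds, drawn without an interval, are the genes picked for the change shown. F3, Plaur and Plau have intervals that include 0 on the right, while on the left every interval lies on one side of 0.

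Among the anticoagulant receptors, Procr was low in control cells, at 1.05, 0.925 and 1.33 FPKM in replicates 1 to 3, with 32 to 48 reads a library. With LPS it reached 8.55, 7.67 and 8.40 FPKM, and with LPS + G-CDs 33.6, 40.8 and 43.7 FPKM. The 3 groups did not overlap, and the lowest library of each group was well above the highest of the group before it. The LPS mean (8.21 ± 0.472 FPKM, SD, n = 3) was 7.45 times the control mean (1.10 ± 0.206), a log2 fold change on the log2(FPKM + 1) scale of 2.13 ± 0.13 (SE; limma, adjusted p = 4.6e-06). The LPS + G-CDs mean (39.3 ± 5.18 FPKM) was 4.79 times the LPS mean and 35.7 times the control mean. Relative to the LPS mean, the LPS + G-CDs libraries stood at 409.6%, 497% and 532%, and the LPS libraries themselves at 93.4% to 104%. The rise from LPS to LPS + G-CDs was 2.12 on the log2(FPKM + 1) scale. It was the fourth-highest of the 11585 changes in that comparison, the comparison it was picked from. Procr thereby moved from the 7.6th percentile of level among tested genes in control to the 52.4th with LPS and the 86.6th with LPS + G-CDs.

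Thbd, the partner of Procr in the activation of protein C, was close to absent. A single control library held 4 reads (0.0631 FPKM) and the other 8 libraries held 0, where 0 reads allow up to 3 in a library, so no fold is given. Proc, which encodes protein C itself and was looked up after these values were seen, reached at most 1 read in a library.

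In the initiation of clotting, F3 was measured at 0.274, 0.511 and 0.578 FPKM in control, from 13 to 26 reads a library. It reached 8.16, 7.71 and 6.67 FPKM with LPS and 9.36, 9.58 and 8.82 FPKM with LPS + G-CDs. Both treated groups lay far above control, and the lowest LPS + G-CDs library lay above the highest LPS library by a small margin. LPS raised the F3 mean 16.5-fold, from 0.454 ± 0.16 to 7.51 ± 0.764 FPKM (SD, n = 3; log2 fold change 2.55 ± 0.13 SE; limma, adjusted p = 1.1e-06). All control libraries were under the expression minimum, so F3 entered the test only through libraries that received LPS. The LPS + G-CDs mean was 9.25 ± 0.391 FPKM, 1.23 times the LPS mean, and this difference did not pass the test (log2 fold change 0.27, 95% interval -0.01 to 0.56; limma, adjusted p = 0.33). The interval therefore leaves room for a rise of up to 0.56 on the log2 scale. Against control, F3 was higher in the LPS + G-CDs group by 2.82 on the log2 scale (limma, adjusted p = 5.8e-07).

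F10 stayed at the edge of detection, with 38 reads in all in the control libraries, 25 in the LPS libraries and 12 in the LPS + G-CDs libraries. Its FPKM was 0.234, 0.215 and 0.329 in control, 0.212, 0.106 and 0.328 with LPS, and 0.0253, 0.0882 and 0.183 with LPS + G-CDs. The LPS libraries overlapped both other groups, and the LPS + G-CDs libraries lay below all control libraries. Fitted with voom on the recovered reads of genes with at least 10 reads in at least 3 libraries, F10 did not pass the test in any comparison (adjusted p = 0.7, 0.35 and 0.11 for LPS against control, LPS + G-CDs against LPS and LPS + G-CDs against control). F10 was thus not called at these read counts, which does not show that it was unchanged.

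The urokinase receptor gene Plaur had the highest mean FPKM of the 8 genes in every group, although in control its libraries overlapped those of Plau. It was measured at 19.2, 17.3 and 21.3 FPKM in control, 270.5, 245 and 279 FPKM with LPS, and 238, 287 and 324 FPKM with LPS + G-CDs. The treated groups overlapped each other and lay far above control. LPS raised the mean 13.7-fold, from 19.3 ± 1.98 to 265 ± 17.7 FPKM (SD, n = 3; log2 fold change 3.71 ± 0.15 SE; limma, adjusted p = 3.4e-07), which took Plaur to the 98.6th percentile of level. The LPS + G-CDs mean was 283 ± 43.5 FPKM, and its difference from LPS was 0.09 on the log2 scale (95% interval -0.26 to 0.43; limma, adjusted p = 0.74). The sign of this small difference turned when values were rescaled to TPM (-0.08), so no direction is given.

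Plau, which encodes the ligand of that receptor, went the other way. Its FPKM was 22.3, 15.4 and 12.9 in control, 9.66, 11.7 and 9.59 with LPS, and 7.80, 10.2 and 5.98 with LPS + G-CDs. The LPS libraries all lay below the control libraries by a margin smaller than the control spread, and the treated groups overlapped. The LPS mean (10.3 ± 1.21 FPKM, SD, n = 3) was 0.612 times the control mean (16.9 ± 4.86), a log2 fold change of -0.63 ± 0.23 (SE) that missed the threshold (limma, adjusted p = 0.063) and passed it when the replicate number entered as a block (adjusted p = 0.035). With LPS + G-CDs the mean was 8.003 ± 2.13 FPKM, a difference from LPS of -0.35 on the log2 scale (95% interval -0.86 to 0.16; limma, adjusted p = 0.39). Against control, Plau was lower in the LPS + G-CDs group by -0.98 ± 0.23 on the log2 scale (SE; limma, adjusted p = 0.012). RNA of the receptor gene relative to that of the ligand gene was thus of another order in the treated cells, and their proteins were not measured. The ratio of Plaur to Plau within a library, in FPKM, was 0.86, 1.13 and 1.65 in control, 28.01, 20.9 and 29.1 with LPS, and 30.5, 28.1 and 54.2 with LPS + G-CDs.

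Serpinb2, the PAI-2 gene, had 0 reads in the 3 control libraries. It had 37, 32 and 51 reads with LPS (1.14, 0.987 and 1.49 FPKM) and 7, 19 and 7 reads with LPS + G-CDs (0.206, 0.487 and 0.212 FPKM). Every LPS library lay above every LPS + G-CDs library, at low counts in both groups. Set against the floor of 3 reads in each control library, the LPS mean (1.21 ± 0.26 FPKM, SD, n = 3) was at least 16.9-fold higher and the LPS + G-CDs mean (0.302 ± 0.16) at least 4.21-fold higher. The LPS + G-CDs mean was 25.0% of the LPS mean. In a limma fit with no expression minimum, the rise with LPS was 1.13 on the log2(FPKM + 1) scale and passed the test (adjusted p = 0.00046), whereas the difference between LPS + G-CDs and LPS, -0.76 ± 0.11 (SE), did not (adjusted p = 0.076, unadjusted p = 0.00017). In the same limma fit LPS + G-CDs against control, 0.37, did not pass either (adjusted p = 0.083), whereas it passed in the voom fit of genes with at least 10 reads in at least 3 libraries (adjusted p = 0.0005), which Serpinb2 entered through the LPS libraries. The gene Serpinb10 overlaps Serpinb2 and had 0 reads in all libraries.

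Edn1 had 0 reads in the 3 control libraries. With LPS it reached 24.5, 27.0 and 21.6 FPKM, from 673 to 796 reads a library, and with LPS + G-CDs 11.1, 9.65 and 9.95 FPKM, from 299 to 343 reads. The 3 groups did not overlap, and the LPS + G-CDs libraries lay close together at less than the lowest LPS library. Against the floor of 3 reads in each control library (a mean of 0.0787 FPKM), the LPS mean (24.4 ± 2.66 FPKM, SD, n = 3) was at least 309-fold higher and the LPS + G-CDs mean (10.2 ± 0.741) at least 129.9-fold higher. On the log2(FPKM + 1) scale the LPS rise was 4.66 ± 0.11 (SE; limma, adjusted p = 2.3e-08), the 35th highest of the 11585 changes. Edn1 passed the expression minimum only through libraries that received LPS, and its LPS values were also part of how it was picked. This p and rank are therefore not independent of the choice of the gene. The LPS + G-CDs mean was 42.0% of the LPS mean, and the difference on the log2 scale was -1.17, the 93rd lowest in the comparison it was picked from. In FPKM, the ratio of Procr to Edn1 within a library was 0.35, 0.284 and 0.388 with LPS and 3.04, 4.22 and 4.39 with LPS + G-CDs.

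**Figure D3:**
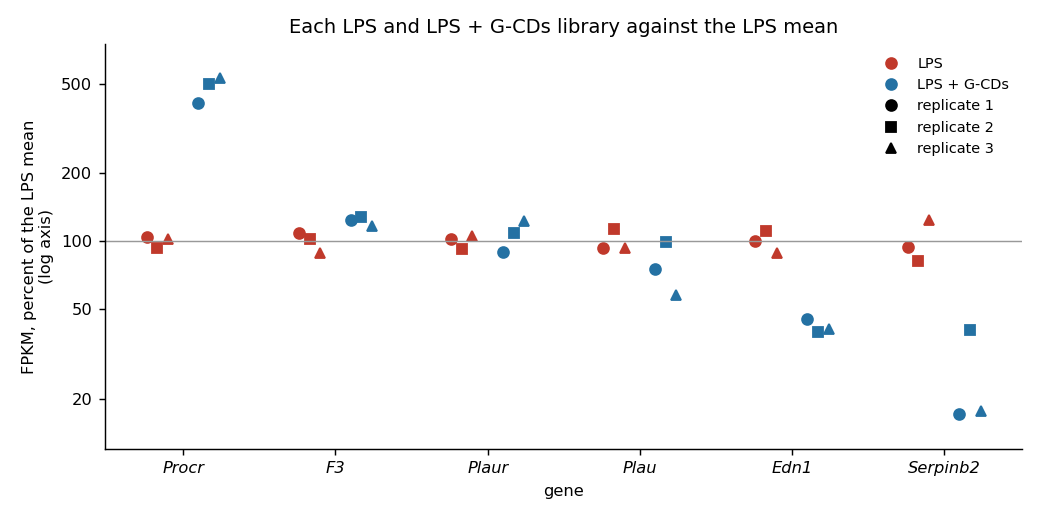
FPKM of each LPS and LPS + G-CDs library as a percentage of the LPS mean (y axis, log scale) for 6 genes (x axis), with points shaped by replicate number. Procr lies above 400% in all LPS + G-CDs libraries, Edn1 between 39.6% and 45.4% and Serpinb2 between 17.1% and 40.4%, while Plaur and Plau lie across 100% or overlap the LPS libraries.

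Of the rest of the endothelin list, only Furin and Ece1, which encode enzymes that cut the precursor, passed the expression minimum. Furin, a protease that trims precursor proteins including that of endothelin-1, rose from 7.67 ± 0.922 FPKM in control to 58.4 ± 2.06 with LPS (SD, n = 3; log2 fold change 2.78 ± 0.20 SE; limma, adjusted p = 1.3e-05). With LPS + G-CDs it was at 38.8 ± 11.8 FPKM, below LPS in all libraries but not past the test (log2 fold change -0.62 ± 0.20 SE; adjusted p = 0.27). Without LPS + G-CDs replicate 1 this difference was -0.83 and passed (adjusted p = 0.049). Ece1, the endothelin-converting enzyme, was at 5.31 ± 0.864, 4.24 ± 0.278 and 3.92 ± 1.22 FPKM in control, LPS and LPS + G-CDs and passed neither test (adjusted p = 0.33 and 0.7). The receptor genes Ednra and Ednrb and the other endothelin genes Edn2 and Edn3 had 0 reads in all libraries. Ece1 and these 4 genes were chosen for mention after their values were seen.

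Across 5 lists of pathway genes, 65 genes in all and the 8 among them, 19 passed the expression minimum, 46 did not and 21 of those had 0 reads in all libraries. Of the 21 clotting factor genes, 6 were tested, and LPS raised 2 and lowered 0 (median log2 fold change 0.11), where 15.8% of all tested genes were raised and 15.6% lowered. Besides F3 this was F9, the gene of clotting factor IX, which went from 1.05 ± 0.213 to 2.25 ± 0.194 FPKM (SD, n = 3; log2 fold change 0.67; limma, adjusted p = 0.005) and stood at 1.07 ± 0.172 with LPS + G-CDs (difference from LPS -0.65; adjusted p = 0.1). Of the 12 anticoagulant genes, 3 were tested, and LPS raised 2, Procr and Anxa5, and lowered 1, Pros1 (median 0.71). Anxa5, whose product shields the phospholipids on which clotting complexes assemble, went from 215 ± 30.4 to 350.3 ± 7.69 FPKM (log2 fold change 0.71; limma, adjusted p = 0.014). Pros1, the gene of protein S, a cofactor of activated protein C, fell from 9.17 ± 1.92 to 4.85 ± 0.855 FPKM (log2 fold change -0.79; limma, adjusted p = 0.01). The call of Anxa5 was lost when any of the LPS libraries was left out. Under a filter of 1 FPKM or more in all 3 libraries of at least 2 groups, F9 was not kept. LPS then raised 1 clotting factor gene. With TPM, Ggcx (-0.82) and Vkorc1 (-0.95) were called lower by LPS.

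Of the 17 plasminogen system genes, 7 were tested, and LPS raised 1, Plaur, and lowered 0 (median -0.21). Of the 10 endothelin genes, 3 were tested and 2 rose, Edn1 and Furin (median 2.78), where 15.8% of all tested genes rose, and Edn1 was both picked and above the minimum only through libraries that received LPS. Of the list genes outside the 8, LPS lowered 1 (Pros1), and in a limma fit blocked by replicate number it lowered 3, with Ggcx (-0.50, adjusted p = 0.021) and Lrp1 (-0.95, adjusted p = 0.03) added. None of the 5 genes of thrombin and protease-activated receptors passed the minimum. The median over all genes tested was 0.02 in both comparisons. Between LPS + G-CDs and LPS, limma called 0 of the 14 tested list genes that are outside the 8 in either direction (median 0.07), where 0.492% of all tested genes were called, and without LPS + G-CDs replicate 1 it called Furin lower and Vkorc1 higher. Ggcx, Lrp1 and Vkorc1 were named after their values were seen. The medians of the lists in that comparison were 0.07 for clotting factors, 0.20 for anticoagulant genes, over 3 genes that include Procr, 0.25 for the plasminogen system and -0.62 for the endothelin system, the latter over 3 genes that include Edn1.

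**Figure D4:**
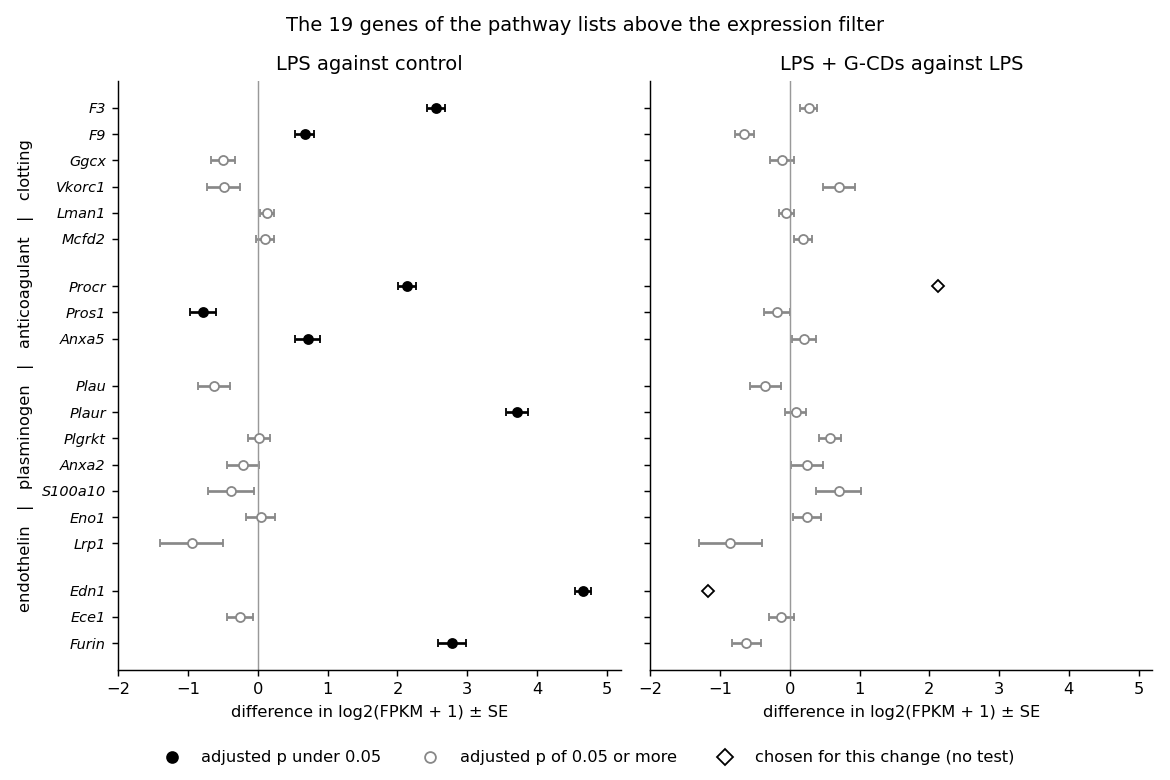
Difference in log2(FPKM + 1) ± SE (x axes) for the 19 list genes above the expression minimum, grouped by list (y axis), for LPS against control on the left and LPS + G-CDs against LPS on the right. Filled points passed an adjusted p under 0.05 and open diamonds, drawn without an SE, are genes picked for the change shown. The 7 rises and 1 fall with LPS stand on the left, and on the right the points other than the diamonds are open.

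As a description over the 9 libraries, which fall into 3 treatment groups, the genes whose log2(FPKM + 1) followed Procr most closely were Sqstm1 (Pearson's r 0.994), Aqp9 (0.993), Ubxn4 (0.991), Psmd11 (0.989) and the processed pseudogene AA414768 (0.986). Each had its lowest mean in control and its highest in LPS + G-CDs, an order that follows from the choice by likeness to Procr. Aqp9 was near the expression minimum, with means of 0.073, 0.526 and 1.355 FPKM in control, LPS and LPS + G-CDs. Sqstm1, which encodes an autophagy receptor, went from 55.2 ± 5.89 to 209 ± 9.14 to 524 ± 56.2 FPKM (SD, n = 3). The genes closest to Edn1 were Il1rn (0.998), Cish (0.998), Mov10 (0.997), Ccl22 (0.997) and Lyn (0.997). Their highest mean was in LPS, which again follows from the choice by likeness. Il1rn, which encodes the interleukin-1 receptor antagonist, went from 1.15 ± 0.424 to 134 ± 5.52 to 51.2 ± 4.35 FPKM. Among the members, r with Procr was 0.902 for F3, 0.877 for Plaur, 0.716 for Edn1 and -0.852 for Plau.

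The nearest tested genes on each side of Procr and Edn1 did not pass the test in the comparison of LPS + G-CDs with LPS. Edem2, which ends 21642 bases to the left of Procr, had a log2 fold change of 0.44 ± 0.14 (SE; limma, adjusted p = 0.25), and BC029722, 62259 bases to the right, had 0.11 ± 0.14 (adjusted p = 0.64). With LPS alone both fell against control, by 0.51 (adjusted p = 0.021) and 0.56 (adjusted p = 0.018), where Procr rose. Beside Edn1, Hivep1 (108939 bases to the left) rose with LPS by 1.14 ± 0.30 (SE; limma, adjusted p = 0.018) and had -0.56 ± 0.30 with G-CDs added (adjusted p = 0.34). Tbc1d7, 843750 bases to the right, passed neither test (adjusted p = 0.92 and 0.51).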

How the data were processed

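RNA-seq of 9 RAW264.7 libraries, 3 in each of 3 groups, was analysed from the deposited FPKM values, which the authors computed per gene from poly-A RNA sequenced on a NovaSeq instrument. The submitters' processing notes name GRCm38 and mm10, while the aligner, the counter and their versions are not given in the sources used here. The deposited gene lengths were used to turn FPKM into whole reads, on genes between 14752400 and 17312255 per library. The library size the authors divided by was 1.108 to 1.14 times these reads in control, 0.929 to 0.936 times in LPS and 0.88 to 0.98 times in LPS + G-CDs, so the values already hold a scaling between libraries. Reads without molecular identifiers are not independent molecules, and floors of 3 reads cover counting error only.

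The test was run on log2(FPKM + 1), over genes at 1 FPKM or more in 3 or more libraries, with limma 3.58.1 in R 4.3.3 (lmFit, eBayes with trend, 1 model of the 9 libraries, two-sided, Benjamini-Hochberg over the 11585 genes). Changes on this scale understate those of low genes. The fit was also run on simulated data, whose outcome is not given here and on which no result rests. Alternatives covered the pseudocount (0.1), the filter, TPM, median-of-ratios, the 6 libraries of a comparison, eBayes without trend, voom, a replicate block, each library left out and removal of a gene-length trend. Voom with genes of at least 10 reads in at least 3 libraries was added after seeing the data. The members, the gene lists and the rule for naming genes were chosen with earlier results of these data known. That rule named the 8 genes, list genes called in LPS against control or LPS + G-CDs against LPS, the 5 genes most correlated with Procr and with Edn1, overlapping genes and nearest tested neighbours. A gene fixed in the lists is not reported here and was left out of their counts. Of 4 further marker lists, fibroblast, hepatocyte and T cell genes summed to at most 0.171, 0.19 and 0.088 FPKM in a library, and B cell genes to at most 0.542.

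The groups share replicate numbers whose meaning is not stated. After the group means were subtracted, control and LPS libraries with the same number correlated at 0.103, 0.137 and 0.113. These exceed 0.1, the limit set for taking such numbers as pairs. The main test did not block on the replicate numbers, and the fit that did is given among the alternatives. Promoter windows came from RefSeq. Windows for Thbd and Plau, and protein sequences, were not used here. Python 3.11.15 with pandas 2.3.3 and matplotlib 3.10.9 prepared tables and plots.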

Additional observations from a re-analysis of the deposited data

How the results depend on the processing

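The rises of Procr, Edn1, F3 and Plaur with LPS kept their direction and passed the test in all 21 alternatives, the lowest log2 fold changes being 2.07, 4.58, 2.46 and 3.49. These alternatives are refits of the same libraries. Edn1 and F3 entered the filtered fits only through libraries that received LPS. The difference of F3 between LPS + G-CDs and LPS stayed positive and outside the threshold (0.09 to 0.33, adjusted p from 0.21 to 0.74). For Procr in LPS + G-CDs against LPS, removal of the gene-length trend gave 1.89, and leaving out a library gave 2.05 to 2.23. Against control it came to 5.04 with a pseudocount of 0.1, 5.13 with voom and 5.15 with the wider voom. For Edn1 in LPS + G-CDs against LPS, TPM gave -1.38 and trend removal -1.40, with -1.25 to -1.10 when a library was left out. Against control it came to 6.69 with the pseudocount of 0.1, 4.76 with TPM, 9.59 and 9.61 with both voom fits and 3.39 with trend removal. Edn1 had 0 control reads, so the values with the other pseudocount and with voom depend on the prior count.

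Plaur in LPS + G-CDs against LPS turned negative with TPM (-0.083), with trend removal (-0.086) and without LPS + G-CDs replicate 3 (-0.017, in a leave-one-out range of -0.017 to 0.206). With TPM the median change over all tested genes, in log2, was -0.23 in LPS against control, -0.14 in LPS + G-CDs against LPS and -0.38 in LPS + G-CDs against control, beside 0.02 in each as reported. Plau in LPS against control passed the threshold with TPM (-0.92, adjusted p = 0.041), with the 6 libraries alone (-0.63, adjusted p = 0.047), with the replicate block (-0.63, adjusted p = 0.035), without control replicate 3 (adjusted p = 0.038) and without LPS + G-CDs replicate 3 (adjusted p = 0.04), with limma, in a leave-one-out range of -0.79 to -0.42 and over adjusted p from 0.035 to 0.19. In these settings 1 member was called lower in place of 0 (0 to 1 when a library was left out). The replicate block changed no other call of the 5 genes fitted with it. With the wider voom, the log2 fold changes of F10 were -0.32, -1.23 and -1.55 and those of Serpinb2 were 6.68, -2.03 and 4.65 for LPS against control, LPS + G-CDs against LPS and LPS + G-CDs against control. The causes were not tested.

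Of all genes tested, LPS against control gave 1003 higher and 3059 lower with TPM, and 1189 to 2120 lower with a library left out (1189 without LPS replicate 2). LPS + G-CDs against LPS gave 29 higher and 28 lower as reported. The higher calls were 18 with the pseudocount, 18 with no filter, 16 with TPM, 14 with 6 libraries, 144 at p under 0.01 and 1.5-fold, and 7 to 106 with a library left out. The lower calls were 7, 11 and 11 with the pseudocount, TPM and 6 libraries, 53 with trend removal, 144 at p under 0.01 and 1.5-fold, and 4 to 150 with a library left out. LPS + G-CDs against control gave 761 and 951 higher with TPM and 6 libraries, 3218 and 838 lower, and 897 to 1559 lower with a library left out. List genes outside the 8 called lower by LPS numbered 1 as reported, 3 with no filter, 4 with TPM, 2 with 6 libraries, 2 with the wider voom, 2 with trend removal, 3 with the replicate block and 1 to 2 with a library left out. In LPS + G-CDs against LPS, 0 to 1 were called in each direction with a library left out. The replicate numbers of LPS and LPS + G-CDs libraries shared deviations at r of 0.095, 0.08 and 0.143, and those of control and LPS + G-CDs at 0.28, 0.057 and 0.653, not all above 0.1. Values of F10, Thbd and Serpinb2 rest on few reads.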
